A study of Homo sapiens with 18 samples.

Results

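DAOY is an established human cell line from a desmoplastic cerebellar medulloblastoma, a childhood tumour of the cerebellum. The comparison described here set spheroidal aggregates of DAOY held for 8 h in a direct current electric field of 250 V/m against aggregates held for 2 h in the same field, 3 samples against 3, out of 18 samples in the series. The other samples used here were the 3 unexposed DAOY samples (0 h) and the samples of U87 mg, an established glioblastoma line treated in the same way. All aggregates were embedded in Matrigel diluted with medium and kept in a channel for a day before exposure. 3 channels were pooled into each sample. Per the study's methods, the 3 replicates with the best quality were chosen from those prepared in each condition. For DAOY at 8 h only 3 were available, since a further sample had poor RNA quality, so the 2 h and 8 h groups were not chosen alike. Channels held for these times without current were not analysed here, so longer exposure and longer time in the channel cannot be told apart. Members of the comparison were the genes whose deposited rows share a name: their estimated counts were summed, which left 15396 genes after a filter on low counts, of 32490 names listed.

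Cells in a direct current field can migrate along it, a behaviour called electrotaxis or galvanotaxis. Such fields are known to redistribute charged proteins and receptors in the membrane and to engage growth factor receptors, PI3K and MAP kinase signalling within minutes, whereas changes in RNA can follow over hours. An RNA that differs between 2 h and 8 h may have moved late, moved throughout, or moved early and come back. RNA levels were read by sequencing of poly-A selected libraries and are given as CPM, estimated counts relative to the size of each library, scaled by TMM. They compare a gene between samples and not one gene with another.

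The 6 libraries of this comparison held between 8491703 and 10977496 estimated counts. Transcripts of the mitochondrial genome took 4.25 to 5.72% of the counts at 2 h and 5.97 to 8.44% at 8 h, so the groups did not overlap, with the highest share in replicate 1 of 8 h. Retained-intron transcripts took 2.51 to 3.32% at 2 h and 3.21 to 3.81% at 8 h, again highest in replicate 1 of 8 h. The libraries also differed in their mitosis genes within each group. The summed level of 52 genes of mitosis was 6076, 2949 and 3472 CPM at 2 h and 9165, 11844 and 3559 CPM at 8 h, and at 0 h it was 6487, 9478 and 3130 CPM. Replicates 1 and 2 of 2 h, replicate 2 of 8 h and replicate 2 of 0 h were thus low, and the other libraries high. In bulk RNA, fewer dividing cells and less RNA of these genes per cell cannot be told apart. Of the markers of cell types, VIM (a mesenchymal intermediate filament) had a median of 2133 TPM over the 9 DAOY samples, CD44 1150 TPM, and ZIC1, a transcription factor of cerebellar granule cell precursors, 12.2 TPM. Of the 12 markers of medulloblastoma and the granule lineage, 7 had a median above 1 TPM. Among these were PAX6 (23.3 TPM), SFRP1 (23.2 TPM), ZIC2 (10.8 TPM) and PTCH1 (8.92 TPM). Of the other 5, the granule lineage factor BARHL1 was at 0 in all DAOY samples, and NEUROD1 and GLI1 had a median of 0. Of the 6 neural progenitor and mesenchymal markers 5 had a median above 1 TPM, and NES had 0.5 TPM. Of the markers of other cells, all 8 of glia had medians under 1 TPM, as did 5 of 6 of leukocytes, 3 of 5 of endothelium (CDH5, CLDN5 and VWF) and 3 of 5 of epithelium (EPCAM, CDH1 and KRT19). The endothelial ENG and PECAM1 had medians of 13 and 7.53 TPM, and the keratins KRT18 and KRT8 of 176 and 28.2 TPM. Of the 7 neuronal markers 6 had a median above 1 TPM. Summed epithelial markers lay between 168 and 243 TPM at 2 h and between 203 and 269 TPM at 8 h, endothelial ones between 20.3 and 26 TPM and between 15.4 and 25.2 TPM, and neuronal ones between 37.9 and 44.7 TPM and between 35.6 and 48.7 TPM. The summed level of the 6 leukocyte markers lay between 29.1 and 45.1 TPM at 2 h and between 12.8 and 40.7 TPM at 8 h, most of it CD68, a lysosomal protein. The summed level of the 8 glial markers was at most 7.2 TPM at 2 h and 5.48 TPM at 8 h.

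**Figure D1:**
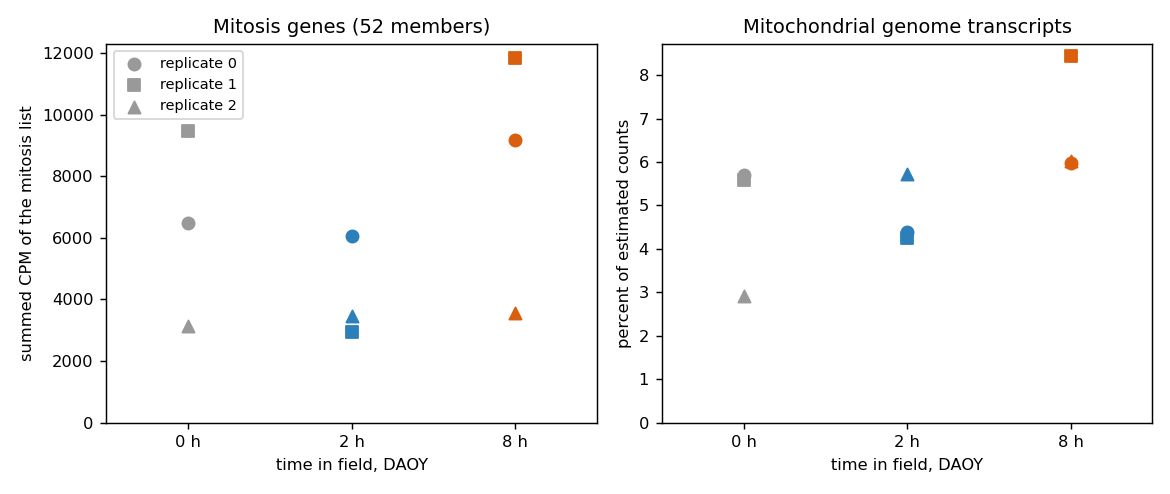
Summed CPM of the mitosis list (left) and percent of estimated counts from the mitochondrial genome (right) in each of the 9 DAOY samples, by time in the field, with 1 symbol per replicate number. The mitosis level ran from 2949 to 6076 CPM at 2 h and from 3559 to 11844 CPM at 8 h, whereas the mitochondrial share of 5.97 to 8.44% at 8 h lay above all 2 h samples.

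Between 2 h and 8 h, 244 of 15396 genes passed an FDR of 0.05 (Benjamini-Hochberg) in the quasi-likelihood test of edgeR (1.58% of the genes tested). Of these, 103 were higher at 8 h (0.669%) and 141 were lower (0.916%). With a 2-fold change required as well, 59 genes were higher (0.383%) and 101 lower (0.656%). The higher genes had a median of 40.3 CPM at 2 h and 80.6 CPM at 8 h, and the lower genes a median of 20.1 CPM at 2 h and 8.89 CPM at 8 h. The most abundant transcripts of these sets had median lengths of 3801 and 2556 bases, and CPM is not scaled by length, so these levels do not rank the sets. Their median log2 fold changes were 1.10 and -1.17, and the median over all genes tested was -0.03. All 244 genes had groups that did not overlap in CPM, as did 29.9% of all genes tested. The higher genes spanned a median of 49.7 kb on the genome and the lower ones 28.4 kb, beside 31.7 kb for all genes tested with a gene model, and the most abundant transcript of each had a median of 9, 7 and 7 exons, respectively. Protein-coding genes made up 89.3% of the higher genes and 90.1% of the lower ones, beside 87.2% of all.

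The number of genes that passed changed when single libraries were left out. Each such fit also had fewer samples, and the part of this in the counts was not tested. Without replicate 1 or 2 of 2 h, or without replicate 1 or 2 of 8 h, 0 genes passed by edgeR (2237, 2326, 1971 and 2227 genes at an unadjusted p under 0.05), with the smallest adjusted p between 0.0624 and 0.0818, and without replicate 0 of 2 h or of 8 h 7 and 70 genes passed. Without replicate 0, 1 or 2 of 0 h, whose libraries enter the filter, the scaling and the estimate of the spread, the counts were 698, 295 and 104, and by DESeq2 892 genes passed. In each of these fits all 244 genes kept their direction with an unadjusted p under 0.05. The 244 genes were chosen in these same samples and their groups did not overlap, so a kept direction is no independent support. With the summed mitosis level of each library as a covariate, an alternative chosen after seeing the data, 140 genes passed, 92 of them among the 244, all of which kept their direction.

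**Figure D2:**
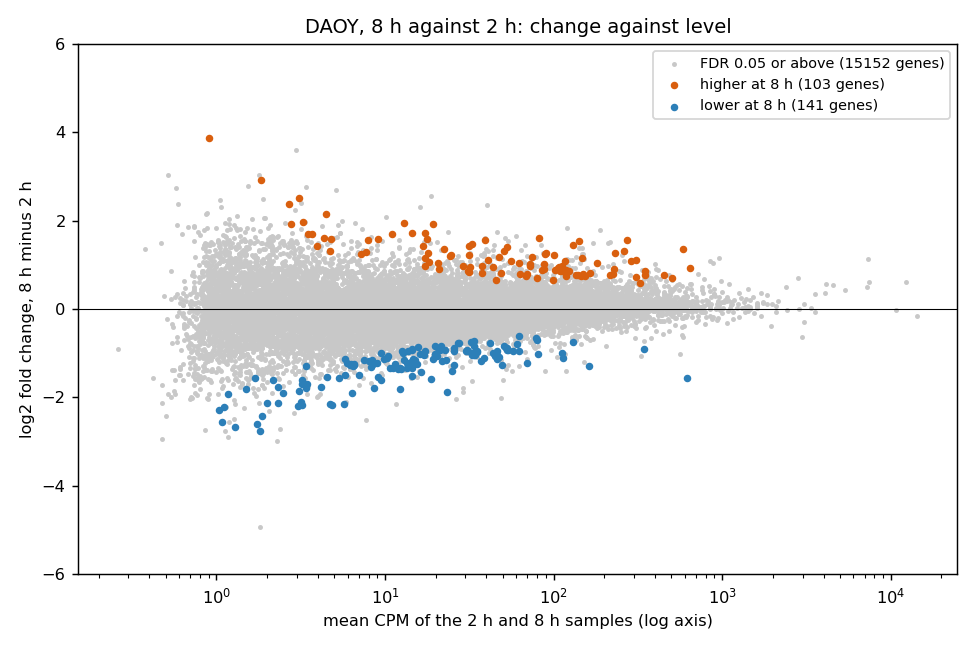
Log2 fold change of 8 h minus 2 h in DAOY against the mean CPM of the 6 samples (log axis), 1 point per gene tested, with the 103 higher and 141 lower genes in colour. The 4 genes beyond a log2 fold change of 6 in either direction are not drawn, and the coloured points lie nearer to 0 as the level rises.

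The 15 leading genes that rose were sorted by hand by what they encode, and this sorting was not tested. ZBTB40 and ZNF143, which had the smallest p among them by edgeR, act in transcription. ZBTB40 encodes a zinc finger protein of the BTB family. ZBTB40 had 27.9, 30.2 and 29 CPM at 2 h and 71.1, 75.5 and 69.7 CPM at 8 h. This was a 2.49-fold rise (log2 fold change 1.31, SE 0.15, edgeR adjusted p = 0.0133). ZNF143 encodes a zinc finger activator that binds many promoters and takes part in chromatin looping. ZNF143 samples at 2 h had 29.6, 26.7 and 30.7 CPM, and at 8 h 66.8, 79.4 and 83.6 CPM. The 8 h level was 2.64-fold higher (log2 fold change 1.40, SE 0.16, edgeR adjusted p = 0.0133). The lowest 8 h sample of each gene was more than double its highest 2 h sample. PRDM10, a regulator with a PR/SET domain and zinc fingers, and CREBZF, a bZIP protein that interacts with ATF4 and HCF-1, also rose. Levels of PRDM10 were 17.8, 19.6 and 14.5 CPM at 2 h, against 48, 48.9 and 47.4 CPM at 8 h. At 2 h CREBZF had 43.7, 58.4 and 56.8 CPM, and at 8 h 104, 139 and 133 CPM. The 3 values at 8 h were closest together in PRDM10, whose log2 fold change was 1.47, beside 1.24 for CREBZF.

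RNA-binding proteins and splicing factors were also among the leading genes. FUBP1 binds single-stranded DNA upstream of MYC and also binds introns near splice sites. For FUBP1, the values were 137, 147 and 171 CPM at 2 h and 354, 429 and 342 CPM at 8 h. FUBP1 was 2.48-fold higher at 8 h (log2 fold change 1.31, SE 0.15, edgeR adjusted p = 0.0133). The rise was seen in its protein-coding transcripts, from 88.7 ± 1.6 TPM at 2 h to 188 ± 18.9 TPM at 8 h (SD, n = 3), and in those annotated to nonsense-mediated decay, from 15.7 ± 6.62 to 51.7 ± 5.95 TPM. KIAA0907, now named KHDC4, is a KH domain protein that takes part in splicing, and PRPF39 is a component of the U1 snRNP. KIAA0907 stood at 75.4, 88.7 and 109 CPM at 2 h and at 169, 242 and 198 CPM at 8 h. PRPF39 had 53.1, 55.5 and 49.5 CPM at 2 h and 108, 145 and 128 CPM at 8 h. KIAA0907 was also higher at 2 h than at 0 h in value (0 h samples of 58.8, 49.8 and 55.9 CPM), although its log2 fold change of 0.73 from 0 h to 2 h did not pass. The log2 fold changes from 2 h to 8 h were 1.16 in KIAA0907 and 1.27 in PRPF39. ZCCHC8, a subunit of the nuclear exosome targeting complex, rose as well. ZCCHC8 samples at 2 h had 26.4, 23.7 and 27.2 CPM, and at 8 h 55.6, 60.6 and 51.3 CPM. All values at 8 h were about double those at 2 h, and the log2 fold change was 1.12.

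MALT1 and TRIB2 belong to signalling. MALT1 is a paracaspase and scaffold of NF-kB activation. Levels of MALT1 were 67.9, 59.1 and 89 CPM at 2 h, against 178, 236 and 218 CPM at 8 h. This was a 2.92-fold rise (log2 fold change 1.55, SE 0.2, edgeR adjusted p = 0.0133). TRIB2 is a pseudokinase that directs proteins such as C/EBP alpha to degradation. At 2 h TRIB2 had 186, 196 and 208 CPM, and at 8 h 406, 500.3 and 362 CPM. The 8 h level was 2.15-fold higher (log2 fold change 1.10, SE 0.15, edgeR adjusted p = 0.0136). The lowest 8 h sample of TRIB2 lay well above its highest 2 h sample.

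A further group of leading genes acts at cell contacts and in the cytoskeleton. AJUBA is a LIM domain protein of adherens junctions that inhibits the LATS kinases upstream of YAP. For AJUBA, the values were 34.7, 35.8 and 35.7 CPM at 2 h and 80.6, 79.6 and 67.2 CPM at 8 h. AJUBA was 2.14-fold higher at 8 h (log2 fold change 1.10, SE 0.15, edgeR adjusted p = 0.0152). PALLD (palladin) organizes actin bundles, and GJC1 encodes a connexin of gap junctions. PALLD stood at 55.9, 55.1 and 72 CPM at 2 h and at 137, 154 and 134 CPM at 8 h. GJC1 had 51.6, 44.9 and 39.6 CPM at 2 h and 91.9, 125 and 91.4 CPM at 8 h. Groups did not overlap in either gene, with log2 fold changes of 1.21 and 1.18. For PALLD the call was lost when only protein-coding transcripts were summed (adjusted p = 0.29 by edgeR), and its retained-intron transcripts went from 19.2 ± 5.31 to 47.1 ± 3.48 TPM (SD, n = 3). MEGF10 is an engulfment receptor of glia and muscle satellite cells. MEGF10 samples at 2 h had 14, 22.5 and 23.1 CPM, and at 8 h 56.4, 72.2 and 46.6 CPM. This was a 2.94-fold rise (log2 fold change 1.56, SE 0.24, edgeR adjusted p = 0.0211). MRPS6 encodes a protein of the mitochondrial ribosome. Levels of MRPS6 were 70.4, 71.4 and 69.5 CPM at 2 h, against 119, 227 and 230.3 CPM at 8 h. Its 8 h replicate 0 lay between the 2 h samples and the other 8 h samples, and its log2 fold change was 1.45. Its protein-coding transcripts alone did not pass (adjusted p = 0.098 by edgeR). On chromosome 21 of GRCh38, MRPS6 runs from 34073224 to 34143034 on the plus strand, and SLC5A3, an inositol transporter gene that also passed, lies at 34073570 to 34106262 on that strand, so their reads may be shared.

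Several of the 15 leading genes that fell code for enzymes and for proteins of membrane traffic. GPCPD1 is a glycerophosphocholine phosphodiesterase, which releases choline. At 2 h GPCPD1 had 29.3, 43.3 and 37 CPM, and at 8 h 10.2, 11.6 and 8 CPM. The 8 h level was 3.68-fold lower (log2 fold change -1.88, SE 0.21, edgeR adjusted p = 0.0133). TATDN3 is a predicted metal-dependent nuclease. For TATDN3, the values were 18.4, 19.8 and 18.8 CPM at 2 h and 4.6, 5.21 and 6.44 CPM at 8 h. TATDN3 was 3.51-fold lower at 8 h (log2 fold change -1.81, SE 0.21, edgeR adjusted p = 0.0133). Their highest 8 h samples lay far below the lowest 2 h samples. VIPAS39 works with VPS33B in sorting from late endosomes, and KLHL12 is an adaptor of the CUL3 ubiquitin ligase that acts in COPII coat assembly. VIPAS39 stood at 31.3, 39 and 39.1 CPM at 2 h and at 13, 14.1 and 14.2 CPM at 8 h. KLHL12 had 66.1, 62.1 and 64.7 CPM at 2 h and 33.1, 31.5 and 26.5 CPM at 8 h. The 3 values at 8 h again lay close together, and the log2 fold changes were -1.40 and -1.08.

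Mitochondrial and peroxisomal proteins were also among them. PTCD2 is a pentatricopeptide protein of mitochondrial RNA processing, AMACR is the racemase of branched-chain fatty acid oxidation, and NUDT12 is a peroxisomal hydrolase of NADH. PTCD2 samples at 2 h had 18.6, 21.7 and 24 CPM, and at 8 h 7.64, 7.65 and 7.27 CPM. Levels of AMACR were 17.4, 16.8 and 17.6 CPM at 2 h, against 6.72, 7.18 and 6.23 CPM at 8 h. At 2 h NUDT12 had 17.6, 21 and 19.5 CPM, and at 8 h 7.83, 6.6 and 8.52 CPM. In these 3 genes the highest 8 h sample lay far below the lowest 2 h sample. Their log2 fold changes were -1.51, -1.36 and -1.34. ENTPD5, a nucleotidase of the endoplasmic reticulum, and UFL1, the ligase of the ubiquitin-like modifier UFM1, act in protein folding and quality control. For ENTPD5, the values were 30.4, 38.3 and 40.3 CPM at 2 h and 14.3, 16.8 and 14.2 CPM at 8 h. UFL1 stood at 62.4, 74.4 and 72 CPM at 2 h and at 28.8, 29.1 and 29.3 CPM at 8 h. The log2 fold changes were -1.27 and -1.26, and the UFL1 samples at 8 h differed by under 1 CPM.

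ORC5 is a subunit of the origin recognition complex, and SRSF8 is an intronless splicing factor gene of the SR family. ORC5 had 89, 102 and 100 CPM at 2 h and 45.2, 40.1 and 39.1 CPM at 8 h. SRSF8 samples at 2 h had 57.8, 63.8 and 66.2 CPM, and at 8 h 33.1, 28.4 and 29.1 CPM. The groups did not overlap in either gene, with log2 fold changes of -1.22 and -1.05. RWDD2B, FAM114A2, the pseudogene HTR7P1 and the clone-named RP11-76C10 completed the rule for naming. Their log2 fold changes were -1.17, -1.10, -2.18 and -1.80. The reads of HTR7P1 may be shared with its parent gene, and the name RP11-76C10 joined 4 gene identifiers of the same clone. Of these 30 leading genes, the 0 h and 2 h samples did not overlap in AJUBA, AMACR, KIAA0907, NUDT12, PTCD2 and ZNF143, and 0 passed 2 h against 0 h by edgeR. When only protein-coding transcripts were summed, TATDN3, AMACR and RWDD2B lost their calls, as did PALLD and MRPS6 above. Their adjusted p by edgeR were 0.0502 in TATDN3, 0.0566 in AMACR and 0.0679 in RWDD2B.

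**Figure D3:**
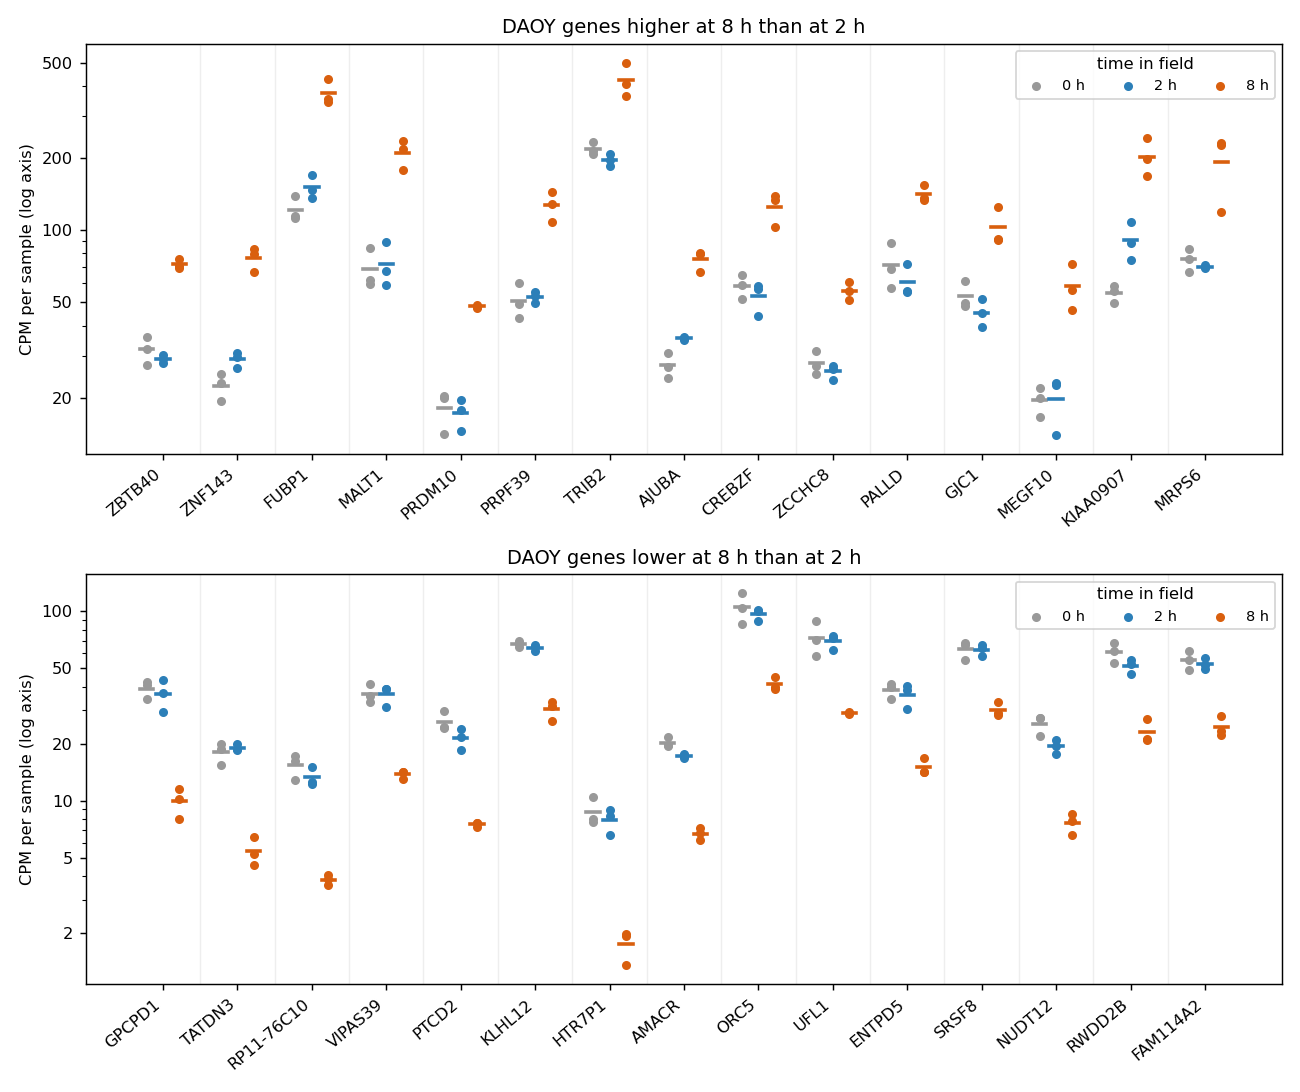
CPM of each DAOY sample (points, log axis) and mean of 3 samples (bars) at 0 h, 2 h and 8 h for the 15 leading genes higher at 8 h (top) and the 15 lower (bottom). In all 30 genes the 2 h and 8 h samples do not overlap, while the 0 h and 2 h samples overlap in 24 of them, with log2 fold changes from 0 h to 2 h between -0.39 and 0.73.

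Promoters are shown for 3 genes: ZNF143 and TATDN3, which had the smallest p among the leading genes with a window in each direction, and BDNF, the gene whose change differed from that in U87 mg. The sequences are RefSeq windows on GRCh38.p14 from 250 bases before to 50 bases after the start of the gene, written 5′ to 3′ on the gene's strand, with capitals marking letters that match a motif searched on both strands. They lie at chr11:9460762-9461061 on the plus strand, chr1:212791644-212791943 on the plus strand and chr11:27721981-27722280 on the minus strand.
ZNF143: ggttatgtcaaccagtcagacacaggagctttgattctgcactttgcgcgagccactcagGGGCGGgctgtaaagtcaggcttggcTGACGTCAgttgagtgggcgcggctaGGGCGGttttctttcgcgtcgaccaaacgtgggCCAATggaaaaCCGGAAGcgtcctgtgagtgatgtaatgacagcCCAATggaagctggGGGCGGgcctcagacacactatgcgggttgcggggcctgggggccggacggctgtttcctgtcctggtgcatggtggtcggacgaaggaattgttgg
TATDN3: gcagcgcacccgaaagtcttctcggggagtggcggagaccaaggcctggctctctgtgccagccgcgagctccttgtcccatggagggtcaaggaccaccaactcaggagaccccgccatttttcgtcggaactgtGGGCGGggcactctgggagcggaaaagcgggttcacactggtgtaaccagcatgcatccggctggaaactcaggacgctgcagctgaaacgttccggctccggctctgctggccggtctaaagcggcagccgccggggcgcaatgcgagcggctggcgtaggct
BDNF: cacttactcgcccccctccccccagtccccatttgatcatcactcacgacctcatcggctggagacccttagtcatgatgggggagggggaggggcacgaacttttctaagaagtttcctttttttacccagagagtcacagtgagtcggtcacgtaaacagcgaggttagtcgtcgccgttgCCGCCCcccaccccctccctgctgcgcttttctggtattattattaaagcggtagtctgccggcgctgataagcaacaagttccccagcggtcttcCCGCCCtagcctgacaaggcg
The ZNF143 window holds the palindrome TGACGTCA of the cAMP response element, whose core TGACGT therefore matched on both strands at positions -164 and -162, together with 3 GC boxes (GGGCGG), 2 CCAAT boxes (CCAAT) and the ETS motif CCGGAAG. The TATDN3 window holds 1 GC box, at position -114. The BDNF window holds 2 GC boxes.

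Windows were given for 79 of the 103 higher genes, 99 of the 141 lower genes and 11270 of all genes tested. The core TGACGT was present in 11.4% of the higher, 12.1% of the lower and 11.7% of all windows. CCGGAAG was present in 13.9%, 25.3% and 18.7%, respectively, and ACTACAA, the core of the motif bound by ZNF143, in 6.33%, 3.03% and 3.73%. The TEAD motif GGAATG was present in 11.4%, 6.06% and 10.6%, the E-box CACGTG in 8.86%, 7.07% and 10.1%, and the AP-1 motif TGANTCA in 3.8%, 5.05% and 4.73%. GC boxes were present in 64.6%, 61.6% and 68.7%, CCAAT in 30.4%, 28.3% and 36.9%, the NRF1 half-site GCGCATG in 8.86%, 13.1% and 7.47%, and the TATA box TATAAA in 6.33%, 7.07% and 6.09%. A match is a description of the letters, and these shares were not tested.

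Lists of genes were then described by how many members passed and by their median, beside 1.58% passed and a median log2 fold change of -0.03 over all genes. Of 37 lists, 19 had 0 members that passed by edgeR. The list with the highest share was that of genes with detained introns and of splicing kinases, transcripts known to be held in the nucleus until an intron is removed. In it 5 of 31 genes rose, 0 fell, and the median was 0.38. With the mitosis covariate 4 of these calls were lost by edgeR (RSRP1, DDX17, OGT and PNISR, adjusted p from 0.0535 to 0.0832), and with protein-coding transcripts only 4 were lost (RSRP1, LUC7L, OGT and PNISR, 0.0679 to 0.156). RSRP1, an arginine and serine rich protein, moved most. Levels of RSRP1 were 27.9, 47.8 and 45.1 CPM at 2 h, against 89, 171 and 108 CPM at 8 h. This was a 3.05-fold rise (log2 fold change 1.61, SE 0.27, edgeR adjusted p = 0.0264). Its transcripts annotated to nonsense-mediated decay went from 25.4 ± 9.9 TPM at 2 h to 103 ± 35.6 TPM at 8 h (SD, n = 3). Those with a retained intron went from 19 ± 2.72 to 45.3 ± 4.12 TPM, and its protein-coding transcripts, at a lower level, from 0.82 ± 0.72 to 8.66 ± 5.02 TPM. OGT, which attaches O-linked N-acetylglucosamine to proteins, also rose. At 2 h OGT had 97.4, 167 and 145 CPM, and at 8 h 241, 446 and 295 CPM. Its retained-intron transcripts went from 9.98 ± 4.33 to 34.3 ± 6.99 TPM and its protein-coding ones from 29.1 ± 4.73 to 44.1 ± 15.1 TPM, with replicate 1 of 8 h the highest. LUC7L, a factor of the U1 snRNP, DDX17, an RNA helicase, and PNISR, a serine and arginine rich protein, had log2 fold changes of 0.94, 0.93 and 1.10. In LUC7L the protein-coding transcripts carried the change (22.8 ± 3.9 to 50.8 ± 2.37 TPM) and the retained-intron ones did not differ beyond their spread (6.95 ± 3.86 and 5.67 ± 1.92 TPM). CLK1, the kinase named first in the list, had 79.6, 89.6 and 116 CPM at 2 h and 77.5, 126 and 114 CPM at 8 h (log2 fold change 0.15). The retained-intron share of the libraries, given above, had a higher median at 8 h (3.41%) than at 2 h (3.06%), with groups that overlapped. Its part in these changes was not tested.

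Other lists of RNA processing held few calls. Of 46 spliceosome core genes, PRPF3, a protein of the tri-snRNP, and PRPF38B, a pre-mRNA processing factor, rose (log2 fold changes 0.70 and 0.80), and the median was -0.03. Of 14 SR splicing factors only SRSF8 passed, downward, and the median was 0.00. Among 29 hnRNP and related genes only FUBP1 passed, upward, with a median of 0.08. Of 478 ZNF zinc finger genes 4 rose and 3 fell, 1.46% in all, which is near the background. ZNF141 and ZNF234 rose beside ZNF143 and ZNF587, and ZNF287, ZNF25 and ZNF311 fell, with log2 fold changes of 1.24, 0.98, -1.26, -1.54 and -1.77. Lists of nuclear long RNAs (15 genes, median 0.54) and snoRNA host genes (22 genes, median 0.27) had 0 calls. NEAT1, the scaffold of paraspeckles, had 29.9, 61.6 and 55.6 CPM at 2 h and 93.7, 69.5 and 103 CPM at 8 h, a difference that did not pass (adjusted p = 0.16 by edgeR), although the groups did not overlap.

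Growth factors and receptors passed singly. MET, the receptor of hepatocyte growth factor, was the only one of 25 growth factor receptors to pass. For MET, the values were 154, 191 and 208 CPM at 2 h and 289, 413 and 473 CPM at 8 h. The 8 h level was 2.13-fold higher (log2 fold change 1.09, SE 0.21, edgeR adjusted p = 0.0339). EGFR had 324, 342 and 319 CPM at 2 h and 410, 524 and 639 CPM at 8 h, with groups that did not overlap, and did not pass (log2 fold change 0.68, adjusted p = 0.0814 by edgeR). EPHA2, an ephrin receptor induced by ERK signalling, was the only one of 29 ERK feedback genes that passed, with 12.2, 8.33 and 6.72 CPM at 2 h and 28.7, 27.2 and 17.8 CPM at 8 h (log2 fold change 1.43). BMP4, a bone morphogenetic protein, was the only one of 45 genes of TGF-beta and BMP signalling. BMP4 stood at 6.15, 3.97 and 10.2 CPM at 2 h and at 22.7, 22.6 and 21.7 CPM at 8 h. BMP4 was 3.31-fold higher at 8 h (log2 fold change 1.73, SE 0.31, edgeR adjusted p = 0.0292). The 2 h samples of BMP4 were spread more widely than its 8 h samples. Of 36 YAP/TAZ targets and partners, AJUBA alone passed and 27 had a log2 fold change above 0, with a median of 0.29, while YAP1 itself stood at 213 to 237 CPM at 2 h and 228 to 241 CPM at 8 h. Actin and SRF targets had 1 call of 37 (CNN3, calponin 3, log2 fold change 0.71).

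Single genes of the immediate early and inflammatory lists fell. EGR3, an immediate early transcription factor, had 10.5, 18.1 and 11.7 CPM at 2 h and 3.68, 5.44 and 4.78 CPM at 8 h, and was the only one of 35 immediate early genes to pass. This was a 2.90-fold fall (log2 fold change -1.54, SE 0.28, edgeR adjusted p = 0.0304). FOS had 11.6, 13.5 and 17.4 CPM at 2 h and 10.1, 38 and 22.6 CPM at 8 h, with overlapping groups. The immediate early list had a median of 0.10, with 20 members above 0 and 15 below. CCL2, a chemokine that recruits monocytes, fell as well. CCL2 had 1161, 828 and 768 CPM at 2 h and 344, 307 and 290.3 CPM at 8 h. The 8 h level was 2.93-fold lower (log2 fold change -1.55, SE 0.25, edgeR adjusted p = 0.0239). It was the only one of 45 chemokine, cytokine and NF-kB genes to pass, in a list of which 38 members had a log2 fold change below 0 and the median was -0.34. Groups did not overlap in 8 of the 45, beside 29.9% of all genes tested. The summed level of this list was 11687, 6885 and 9250 CPM at 2 h. At 8 h it was 6689, 6586 and 7743 CPM, so the groups overlapped. The level of CD68 among the leukocyte markers also had a lower median at 8 h (22.9 TPM) than at 2 h (40.5 TPM). The groups of CD68 overlapped in CPM, and its log2 fold change of -0.36 did not pass by edgeR. PTPRC and AIF1 stood at or near 0. The part of CD68 in the change of CCL2 was not tested.

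A few genes of the stress and clock lists rose. Of 34 heat shock proteins and cochaperones 3 rose, with a median of 0.28. These were CHORDC1, an HSP90 cochaperone, HSPA4L, an HSP110 family member, and DNAJB6, a chaperone of the HSP40 family (log2 fold changes 1.04, 1.19 and 0.69), whereas HSF1, the factor that drives this response, had a log2 fold change of 0.05 and did not pass. CHORDC1 samples at 2 h had 104, 129.7 and 120.2 CPM, and at 8 h 227, 294 and 207 CPM. The groups of CHORDC1 did not overlap, and replicate 1 of 8 h was the highest. Among 20 circadian clock genes ARNTL (BMAL1), the activator of the clock, and CRY1, a repressor, both rose. Levels of ARNTL were 29.3, 29.7 and 30.1 CPM at 2 h, against 45.7, 61.9 and 66.3 CPM at 8 h. At 2 h CRY1 had 49.6, 42 and 52.3 CPM, and at 8 h 79.5, 111 and 99.2 CPM. Their log2 fold changes were 0.96 and 1.01, and CLOCK did not pass (log2 fold change -0.19). MAFG, a small MAF partner of NRF2, was the only one of 30 NRF2 targets (1.01), TP53INP1, a p53 target of autophagy and stress, the only one of 28 p53 genes (0.87), and PFKFB4, a regulator of glycolysis, the only one of 43 hypoxia and glycolysis genes (1.16), all upward. The NRF2 list had a median of -0.04 with 15 of 30 members above 0, and the p53 list a median of -0.14 with 12 of 28 above 0. The hypoxia list had a median of 0.43 with 34 members above 0. Groups did not overlap in 5 of its 43 members, beside 29.9% of all genes tested. Its summed level was 10741, 9517 and 9358 CPM at 2 h and 9650, 8641 and 15854 CPM at 8 h. Only replicate 2 of 8 h lay above the 2 h samples.

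Cell division was covered by 2 lists. The mitosis list had the highest median, 0.99, with 51 of 52 members above 0, yet 0 passed by edgeR and only 1 had groups that did not overlap. In the summed level, replicate 2 of 8 h lay near the low libraries of 2 h. CCNA2, a cyclin of S phase and G2, had 89.8, 35.3 and 35.9 CPM at 2 h and 101, 127 and 32 CPM at 8 h. Of 47 DNA replication genes, RPA2, a subunit of the single-stranded DNA binding protein RPA, fell (107, 87.1 and 96.3 CPM at 2 h and 66.3, 59.9 and 58.4 CPM at 8 h, log2 fold change -0.65), and 38 members had a value below 0 with a median of -0.34. Groups did not overlap in 5 of the 47, beside 29.9% of all genes tested. The summed level of the replication list was 3995, 2029 and 2455 CPM at 2 h. At 8 h it was 3139, 2591 and 1626 CPM, so the groups overlapped. The 13 protein-coding genes of the mitochondrial genome all had values above 0 (median 0.49, 0.35 to 0.63) without a call, and the 80 nuclear genes of oxidative phosphorylation had a median of -0.23, also without a call. The share of mitochondrial counts differed between the groups in the same direction, as given above. ZIC2, a cerebellar zinc finger factor, was the only one of 8 tested medulloblastoma markers to pass (1.22).

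In the remaining lists 0 genes passed by edgeR at the FDR threshold. Medians were 0.06 in the unfolded protein and integrated stress response (48 genes), -0.09 in aminoacyl-tRNA synthetases (20), 0.10 in cholesterol and fatty acid synthesis (34), 0.08 in G1 cyclins, CDKs and inhibitors (17) and -0.10 in metallothioneins (8). They were 0.04 in integrins and focal adhesion (41), -0.09 in collagens, laminins and matrix proteases (53), -0.08 in the PI3K, AKT and mTOR pathway (44) and 0.05 in notch and hedgehog genes (22). They were -0.14 in proteasome subunits (35), -0.01 in ribosome biogenesis (44), 0.05 in lysosome and autophagy genes (44), 0.00 in cytosolic ribosomal proteins (86) and 0.05 in histones (22). Lists of adhesion, matrix and PI3K signalling, which act in cell movement, were among these. With 1.58% of all genes passing, 0 calls in lists of 41, 53 and 44 genes do not set them apart.

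**Figure D4:**
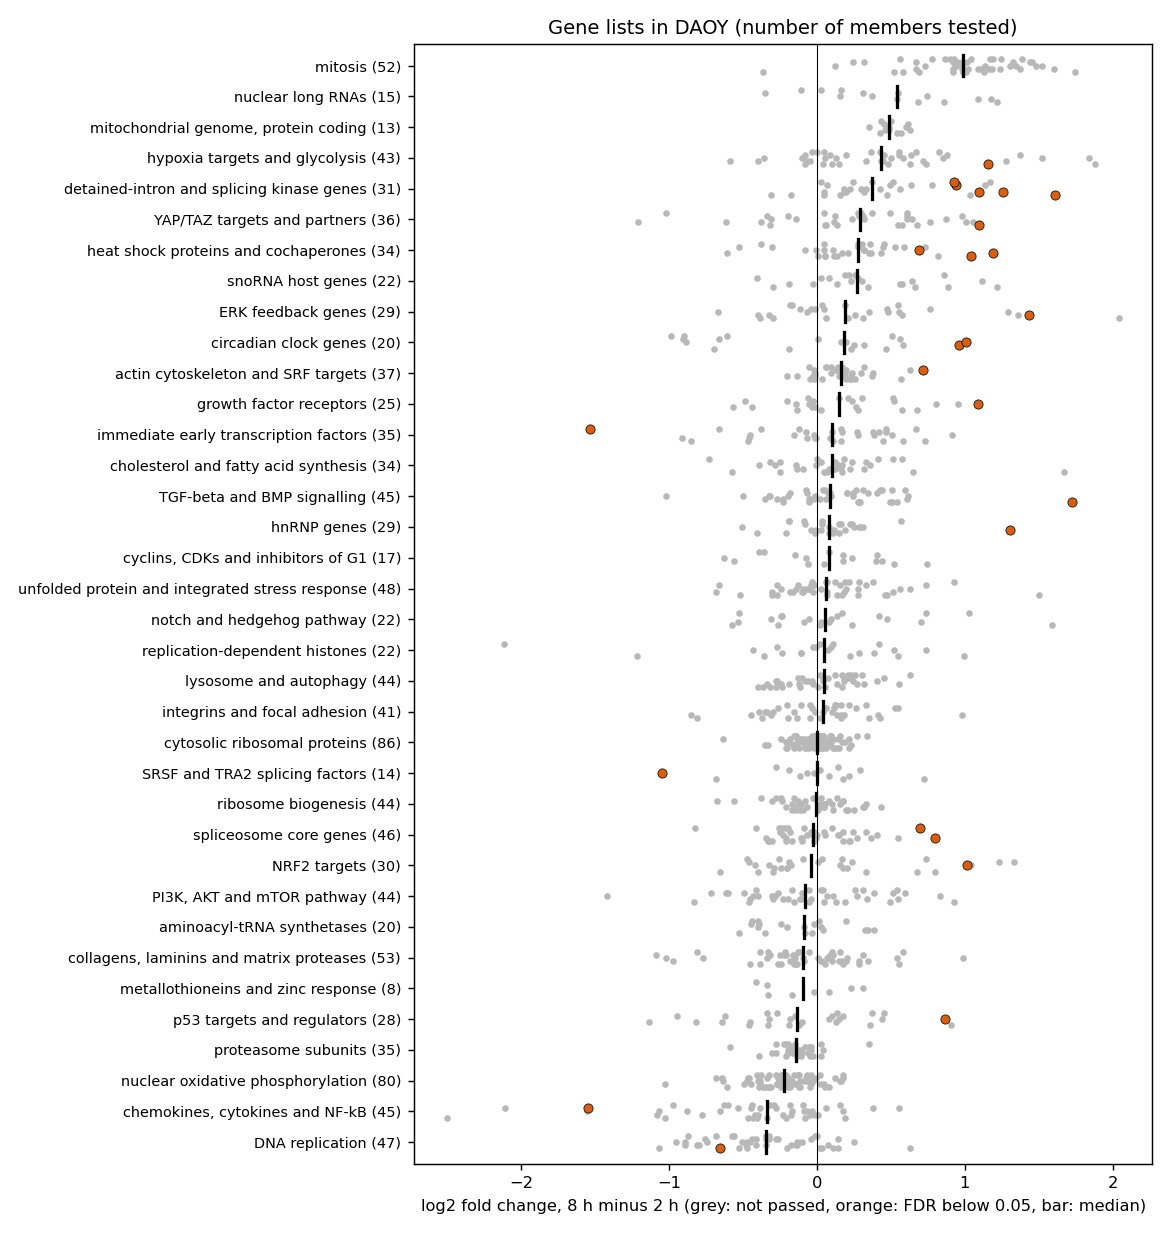
Log2 fold change of 8 h minus 2 h for each tested member (points) of 36 gene lists, with the median of each list (bar) and members that passed in orange. The ZNF list is not drawn. The detained-intron list holds 5 orange points, all to the right of 0, and the mitosis list has the highest median, 0.99, with 0 orange points.

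A change at 2 h that had gone by 8 h was tested directly, as the 2 h level against the mean of 0 h and 8 h in the same 9 samples. By edgeR's quasi-likelihood test 0 of 15396 genes passed (985 at an unadjusted p under 0.05, smallest adjusted p 0.713), and by DESeq2 5 genes passed. 2 h against 0 h also gave 0 calls by edgeR, and 8 h against 0 h gave 900 (5.85%). These comparisons share samples with 8 h against 2 h, so only levels are given side by side. RP11-34P1, annotated as a processed pseudogene at chr5:160258253-160258585, was among those with the smallest p. It had 42.1, 12.5 and 13.2 CPM at 0 h, 3.47, 5.06 and 3.01 CPM at 2 h and 13.2, 15.6 and 20.2 CPM at 8 h, so that the 2 h samples lay below all others. AC021218, a long intergenic RNA on chromosome 7, had 0.8, 0.57 and 1.15 CPM at 0 h, 0.1, 0.1 and 0.12 CPM at 2 h and 1.84, 1.27 and 1.97 CPM at 8 h, which amounts to about 1 estimated count per library at 2 h. ZNF141 had 8.08, 7.72 and 6.67 CPM at 0 h, 3.67, 4.76 and 4.4 CPM at 2 h and 9.21, 10.2 and 11 CPM at 8 h. In these 3 genes the 2 h samples were the lowest of the 9.

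Most of the other genes with the smallest p in that test had levels at 0 h close to those at 2 h. These were ZBTB40 and TRIB2, with 2 h levels below the mean of 0 h and 8 h, and TATDN3, GPCPD1 and VIPAS39, with 2 h levels above it. ZBTB40 for example had 27.5, 36 and 32 CPM at 0 h. RTP4, an interferon-induced chaperone of receptors, had 5.23, 3.58 and 4.48 CPM at 0 h, 5.35, 5.16 and 4.98 CPM at 2 h and 1.47, 1.16 and 0.94 CPM at 8 h. NR1H3, the liver X receptor alpha, had 0.8, 2.28 and 2.19 CPM at 0 h, 3.37, 3.27 and 2.32 CPM at 2 h and 0.46, 0.46 and 0.52 CPM at 8 h. Its 2 h samples lay above all 0 h samples, its log2 fold change from 0 h to 2 h was 0.75, and that change did not pass (adjusted p = 0.999 by edgeR).

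The same comparison in U87 mg, 8 h against 2 h, used other samples and so bears on the genes called in DAOY independently. In U87 mg 116 of 14106 genes passed (0.822%), of which 52 were higher (0.369%) and 64 lower (0.454%) at 8 h. Of the 103 genes higher in DAOY 94 were tested in U87 mg, and 89 of them (94.7%) had a log2 fold change above 0, beside 54.9% of all genes tested in both lines. Of the 141 lower genes 130 were tested, and 122 (93.8%) were below 0, beside 45.1% of all genes. The median log2 fold changes in U87 mg were 0.44 and -0.52, and the median over all genes was 0.04. Since these genes were chosen for passing in DAOY, the sizes of change in the lines are not compared. By edgeR 8 of the higher genes rose and 15 of the lower genes fell in U87 mg (8.51% and 11.5%), beside 0.86% of all genes tested in both lines, and 0 passed in the opposite direction. Among the 15 leading higher genes all 15 were above 0 in U87 mg, from 0.06 in MEGF10 to 1.02 in AJUBA and KIAA0907, and ZNF143, PRDM10 and KIAA0907 passed. Among the 14 leading lower genes tested all 14 were below 0, from -1.20 in GPCPD1 to -0.39 in KLHL12, and PTCD2, AMACR and NUDT12 passed. CHORDC1, MAFG and CHD2, a chromatin remodeller, were among the others that rose in both lines. Both lines had the same exposures, so this does not tell the field from time in the channel.

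**Figure D5:**
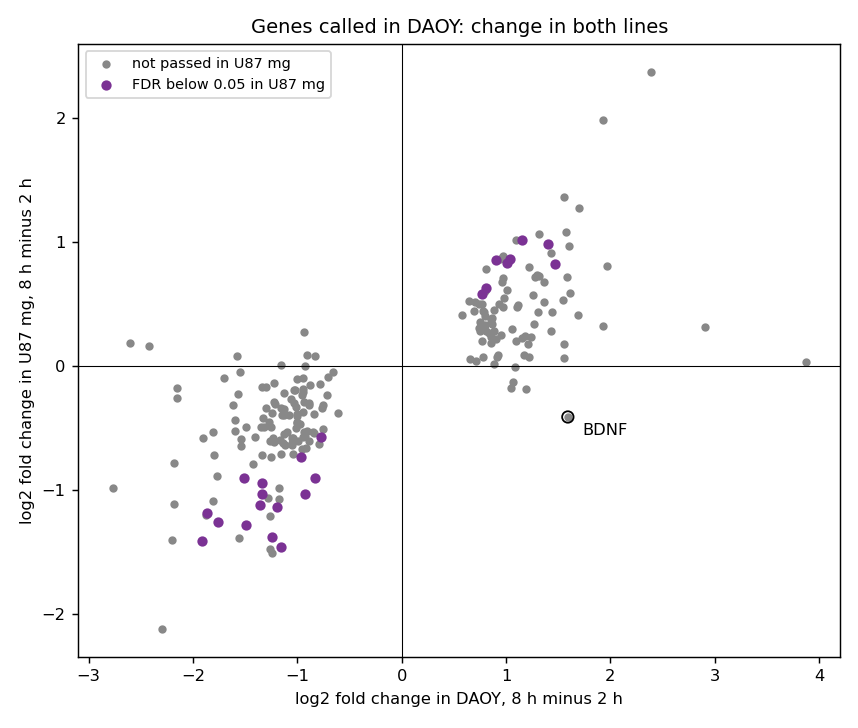
Log2 fold change of 8 h minus 2 h in U87 mg against that in DAOY for the 224 genes called in DAOY and tested in U87 mg. Most points lie at the lower left and upper right (122 and 89 genes), purple points passed in U87 mg too, and BDNF is circled.

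BDNF was the only gene whose change from 2 h to 8 h differed between the lines by edgeR, out of 16482 genes (0.00607%). BDNF is the brain-derived neurotrophic factor, a ligand of the receptor TrkB. Its gene lies at chr11:27654893-27722058 on the minus strand of GRCh38. For BDNF, the values were 4.26, 3.77 and 5.56 CPM at 2 h and 11.7, 14.5 and 14.9 CPM at 8 h. BDNF was 3.02-fold higher at 8 h (log2 fold change 1.59, SE 0.26, edgeR adjusted p = 0.0239). The 0 h samples had 5.46, 5.53 and 3.86 CPM, so the 2 h samples lay in the range of the unexposed ones. In U87 mg BDNF had 37.7, 37.5 and 38.6 CPM at 2 h and 29.2, 28.6 and 26.1 CPM at 8 h, and its log2 fold change of -0.41 did not pass. The difference of the changes was 2.03 (SE 0.25, edgeR adjusted p = 0.003), and its adjusted p lay between 0.00174 and 0.0232 when each DAOY library was left out in turn. By DESeq2 88 genes differed between the lines. Protein-coding transcripts of BDNF went from 1.3 ± 0.3 TPM at 2 h to 3.48 ± 0.14 TPM at 8 h in DAOY (SD, n = 3). When only protein-coding transcripts were summed, the rise of BDNF in DAOY did not pass (adjusted p = 0.071 by edgeR). With the replicate number as a block it did not pass either (adjusted p = 0.0588 by edgeR). This rise passed in 9 of 12 alternatives and in 4 of 9 fits with 1 library left out.

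Single transcripts gave no calls by edgeR: 0 of 41336 transcripts passed between 2 h and 8 h in DAOY (3493 at an unadjusted p under 0.05, smallest adjusted p 0.15), and 1238 passed by DESeq2. The common biological coefficient of variation was 0.256 for gene sums and 0.833 for transcripts. The levels by transcript type above are therefore sums over all transcripts of a type and are descriptions.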

How the data were processed

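RNA from 18 pooled-channel samples of DAOY and U87 mg was sequenced by the authors (TruSeq stranded poly-A libraries, single-end reads). Per the study's methods and the submitters' processing notes, reads were trimmed and assigned by Kallisto 0.43.0 to GENCODE 24 transcripts (GRCh38.p5). For each transcript of a sample the authors deposited an estimated count and its TPM, together with p-values, q-values and log2 fold changes of their Sleuth 0.28.1 comparisons, which were not used here. Whether Kallisto used strand is not given in the sources used here, so overlapping, antisense and near-identical genes are uncertain.

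Estimated counts were summed by gene name, rounded and filtered with filterByExpr. The 9 DAOY samples were fitted together with TMM and edgeR 4.0.16 (glmQLFit, glmQLFTest) in R 4.3.3, and Benjamini-Hochberg adjustment covered all genes tested. The depth of 8491703 to 10977496 estimated counts in the libraries compared limits low genes, and no molecular identifiers were used. The difference from U87 mg was an interaction in all 18 samples. Genes were named by a rule: up to 15 in each direction with the smallest adjusted p among those at an FDR below 0.05, a log2 fold change of at least 1, a mean of 3 CPM or more and groups that do not overlap; up to 8 for the test of an early change, or, since 0 passed, the 5 with the smallest p in each direction; up to 5 for the difference from U87 mg; and members of lists that passed, up to 6 each, with the member named first. The members and the 37 gene lists and 7 marker lists were chosen with earlier results of these data known. Alternatives were DESeq2 1.42.0, limma 3.58.1 on log2(TPM + 1) and log2(TPM + 0.1), RLE size factors, other filters (none, or at least 10 counts in every sample), other sets of samples, robust dispersion, the replicate number as a block and each DAOY library left out. Protein-coding transcripts only and the mitosis level as a covariate were added after seeing the data. Scripts were tested on simulated data. Coordinates of genes were read from GENCODE 29 (GRCh38) by transcript identifier, and promoters from RefSeq on GRCh38.p14.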

Additional observations from a re-analysis of the deposited data

Results flagged for a closer look

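BDNF was picked out because its change from 2 h to 8 h differed between the cell lines by a test of the difference itself. Its log2 fold change in DAOY exceeded that in U87 mg by 2.03 (SE 0.25, edgeR adjusted p = 0.003), with all 3 DAOY samples at 8 h above all 3 at 2 h. Groups of 3 samples were too small to be tested for single outlying samples.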

How the results depend on the processing

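For 8 h against 2 h in DAOY (244 genes), the count was 892 by DESeq2, 601 without a filter, 549 with only the 6 samples compared, 1074 with all 18 samples in one fit, 151 by limma on log2(TPM + 1), 156 by limma on log2(TPM + 0.1), 90 with protein-coding transcripts only and 140 with the mitosis covariate. Leaving out 1 library gave 0 to 698 genes. The share of higher genes was 42.2% and fell to 27.2% and 21.2% by limma. RLE size factors (237), at least 10 counts in every sample (290) and robust dispersion (279) moved the count by less than 1.5 times. With the replicate block 52 genes passed, 47 of them shared. Whether the replicate numbers pair the samples is not given in the labels. Same-numbered samples at 2 h and 8 h deviated with correlations of 0.437, 0.0653 and 0.0989, and differently numbered ones with correlations from -0.259 to 0.175. The early change (0 genes) gave 5 by DESeq2 (ZBTB40, RP11-34P1, TATDN3, TRIB2 and GPCPD1) and 5 without a filter (RP11-34P1, CT47A11, ICAM4, TP53TG3E and RP11-1280N14). It stayed at 0 with the other alternatives and without any 1 library. The difference from U87 mg (1 gene) gave 88 by DESeq2, 175 without a filter, 2 with the block (BDNF and AC021218), 2 by limma on log2(TPM + 1) (BDNF and RTP4) and 0 by limma on log2(TPM + 0.1), where the adjusted p of BDNF was 0.0504 (1503 genes at an unadjusted p under 0.05), and 1 to 9 without 1 library. Without 0 h replicate 2 HSPA4L joined BDNF, and without 8 h replicate 0 MRPS6 and OASL did. Transcripts (0) gave 1238 by DESeq2, 3 without a filter (of IVNS1ABP, ESYT2 and ATP8B1), 146 with all 18 samples, 3 and 33 by limma, and 0 without any 1 library. Genes added by these alternatives were named after their values were seen. For the 63 named genes, 627 of 748 alternative values kept their side of the threshold, 116 lost it and 5 gained it. With 1 library left out 218 of 567 kept it, and 0 of all these values changed direction. The genes were named from these same samples, so a kept direction is no independent support. The causes of these changes were not tested. Low genes, with about 1 count per library in the smallest named, limit what depth can show.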

Other observations

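Further genes that passed between 2 h and 8 h in DAOY (FDR below 0.05 by edgeR) are given here singly, chosen after their values were seen. VEGFC, a lymphangiogenic growth factor, rose from 20.5, 12.4 and 18.5 CPM at 2 h to 45.5, 48 and 45.4 CPM at 8 h, with groups far apart. The ubiquitin ligases CBL and CBLB and the adaptor CRKL rose with log2 fold changes of 0.77, 0.92 and 0.65. TARDBP, an RNA-binding protein that regulates its own transcript, rose from 230.5, 283 and 266 CPM to 429.7, 489 and 408 CPM. METTL3, the catalytic subunit that writes N6-methyladenosine, and AGO2, the slicer of microRNA complexes, had log2 fold changes of 0.74 and 0.86.

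CIRBP, a cold-inducible RNA-binding protein, fell from 122, 102 and 99.4 CPM at 2 h to 53.8, 53.1 and 52 CPM at 8 h, and the 3 samples at 8 h were nearly level. OASL and IFIT5, both known to be induced by interferon, fell with log2 fold changes of -1.58 and -0.94. BBS4, a subunit of the BBSome of cilia, fell (-1.16), and AHI1, a protein of the ciliary transition zone, rose (0.80). The cilium genes CLUAP1, IFT46 and DYNC2LI1 also fell, with log2 fold changes of -1.22, -0.83 and -1.14. No list of cilium genes was described. TK2, the thymidine kinase of mitochondria, fell (-1.34).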
